A study of Homo sapiens with 6 samples.

Results

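The pooled library held 35 shRNAs against the protein-coding transcripts of FOXM1, PLK1 and KIF11, found in the library annotation by target transcript and gene symbol, out of 7873 shRNAs in all. FOXM1 was targeted by 25 of them, 5 for each of 5 listed RefSeq transcripts, and PLK1 and KIF11 by 5 each. The screen followed the abundance of every shRNA in HUH7 cells, an established human line of hepatocellular carcinoma. It compared the cells at the end of culture with the plasmid pool. The input group was 3 libraries of the plasmid pool as it was before virus was made from it. The selected group was 3 libraries amplified from DNA of HUH7 cells that had received the pool, were put on puromycin 2 days after exposure and kept on it for 4 days, and were then cultured for 4 weeks. All cells of the selected group had passed the drug, and no untransduced or unselected cells were compared. The labels do not say whether the libraries of a group came from separate infections, so the p-values speak only of the spread from library to library, which may be technical.

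FOXM1 is a forkhead transcription factor that switches on genes needed for the G2 phase and mitosis, and it is known for its high levels in proliferating and tumour cells, liver tumours included. PLK1, or polo-like kinase 1, is a kinase of mitotic entry, centrosome maturation and chromosome segregation. It phosphorylates and activates FOXM1, and the PLK1 gene is in turn a known FOXM1 target. KIF11, also called Eg5, is the kinesin motor that pushes spindle poles apart, and cells without its activity arrest in mitosis with a monopolar spindle. An shRNA is processed in the cell into a short guide RNA that pairs with its target mRNA, and the bases next to the 5′ end of the guide, the seed, weigh most in that pairing. The counts measure how many cassettes were present and not how far a target mRNA was lowered, which is not analysed here.

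In the GRCh37 build, FOXM1 (ENSG00000111206) lies on the minus strand of chromosome 12 from 2966846 to 2986340, PLK1 (ENSG00000166851) on the plus strand of chromosome 16 from 23688977 to 23701688, and KIF11 (ENSG00000138160) on the plus strand of chromosome 10 from 94333862 to 94415152. Each target is 21 bases long. The targets in the final exon of FOXM1, exon 9 of the 9-exon transcript ENST00000359843, are shown first, without those of shRNAs 11 and 15, because they include both the highest and the lowest fold changes of all the shRNAs described here. They are written 5′ to 3′ as in the mRNA, in the order in which they occur in it, and capitals mark target bases 14 to 20, which pair with bases 2 to 8 of the guide.
FOXM1 shRNA 10: gactatcaaggagGAAGAAAt
FOXM1 shRNA 12: tagctccctgctgCCTGATTa
FOXM1 shRNA 2: gcagggtggtccgTGTAAATa
FOXM1 shRNA 13: ttctccaaattatCCTCTAAt
FOXM1 shRNA 14: gcttatttccttaGATCATTa
FOXM1 shRNA 16: attgggtcaggagTTGAATTt
FOXM1 shRNA 17: gtgcccagatgtgCGCTATTa

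The next target crosses the junction of FOXM1 exons 6 and 7 and is present in 2 of the 5 coding transcripts of the gene. It is shown because its shRNA was also called.
FOXM1 shRNA 24: acttggaatcacaGCAGAAAc

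The PLK1 and KIF11 targets, without that of KIF11 shRNA 1, are shown for contrast, since no shRNA against either gene passed both thresholds.
PLK1 shRNA 1: cgatactacctacGGCAAATt
PLK1 shRNA 2: cctgcaccgaaacCGAGTTAt
PLK1 shRNA 3: gttctttacttctGGCTATAt
PLK1 shRNA 4: cgtctcaaggcctCCTAATAg
PLK1 shRNA 5: gtgtggtccattgGGTGTATc
KIF11 shRNA 2: cggagacgagattAGTGATTt
KIF11 shRNA 3: tcatggcgtcgcaGCCAAATt
KIF11 shRNA 4: ggtcacctaatgaAGAGTATa
KIF11 shRNA 5: aggatcccttggcTGGTATAa

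The libraries held 2323330 to 2612829 counts each in the input group and 1525256 to 4013368 in the selected group, so that 1 count was worth 0.25 to 0.672 CPM (counts relative to the library total, scaled by edgeR's TMM factors). Reads carried no molecular identifiers, and limits given for low counts cover counting error only. The 7232 of 7873 shRNAs that averaged 10 counts or more per library entered edgeR's quasi-likelihood test, and p-values were adjusted over all of them after Benjamini and Hochberg. The log2(fold change) is input over selected, so that a positive value marks an shRNA that was rarer in the selected libraries. Virus production, infection, puromycin and culture all lie between the groups. No library was made from cells soon after infection, so that these steps cannot be told apart. Depleted means a value of 0.75 or more and enriched one of -0.75 or less, in both cases at an adjusted p-value no higher than 0.05. The verbs fell and rose are used where that p-value was met, whatever the size of the change.

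The shRNAs against the 3 genes changed about as often as those of the library as a whole, and they went both ways. Of the 29 that were tested, 10 fell or rose (34.5%, background 32.8%) and 4 were depleted or enriched (13.8%, background 12.7%). Split by direction, 1 was depleted (3.45%, against a background of 6.83% of all tested shRNAs) and 3 were enriched (10.3%, against 5.85%), and all 4 of these target FOXM1. With the fold limit left aside, 4 fell (13.8%, background 15.4%), 6 rose (20.7%, background 17.4%) and 19 did neither. The counts are small and lie on both sides of the background. The 29 log2(fold change) values ran from -2.09 to 1.54 with a median of -0.03, beside a median of -0.01 over all tested shRNAs. The input and selected libraries did not overlap for 17 of the 29 (58.6%, background 51.2%), 8 with every selected library below every input library (background 25.6%) and 9 with every one above (background 25.6%).

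FOXM1 shRNA 13 was the depleted shRNA. It was present at 40.5, 38.7 and 43.4 CPM in the input libraries and at 6.05, 14.4 and 20.8 CPM in the selected ones. All 3 selected libraries were below the lowest input library, and they differed more among themselves than the input libraries did. The log2(fold change) was 1.49 ± 0.36 (SE, edgeR, adjusted p = 0.0142), a 2.82-fold loss. Its target lies in the 3′ untranslated region (3′ UTR) at chr12:2967435-2967455 and is held by 4 of the 5 coding transcripts. The other, ENST00000535350, is annotated with 618 bases, all of them coding, and so without a 3′ UTR. Without any 1 of the input libraries the adjusted p-value was 0.0550 to 0.0668 at a log2(fold change) of 1.47 to 1.55, and the call was lost.

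FOXM1 shRNA 16 gained most. It was rare in the input, at 16.3, 17.9 and 15.1 CPM, and stood at 97.4, 61.7 and 53.6 CPM after selection. The groups were far apart, and every selected library lay well above the highest input library. The log2(fold change) was -2.09 ± 0.27 (adjusted p = 0.00151), a 4.26-fold gain, which placed it at rank 30 of 7232 from the most enriched end. Its target is also in the 3′ UTR, at chr12:2967121-2967141. It was called enriched in all 15 alternative fits, with a log2(fold change) from -2.26 to -1.65.

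The other enriched shRNAs gained less and depended more on single libraries. FOXM1 shRNA 24, across the junction of exons 6 and 7, held 58.3, 48.9 and 47.2 CPM in the input and 69.9, 134 and 72.4 CPM after selection (log2(fold change) -0.85 ± 0.26, adjusted p = 0.0356). Selected replicate 2 was the high library, and without it the log2(fold change) was -0.47 (adjusted p = 0.0565). FOXM1 shRNA 10, against the coding part of exon 9 at chr12:2968705-2968725, held 53.0, 57.0 and 54.2 CPM in the input and 71.2, 82.5 and 130 CPM after selection (-0.81 ± 0.23, adjusted p = 0.0249). Here selected replicate 3 was the high library, and without it the value was -0.50 (adjusted p = 0.0436), inside the fold limit. Every selected library was above every input library for both shRNAs. Both calls were lost without any 1 of the input libraries, with adjusted p-values of 0.0819 to 0.129 for shRNA 24 and 0.0828 to 0.101 for shRNA 10.

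The most positive value belonged to an shRNA that did not pass. FOXM1 shRNA 12, also against the 3′ UTR (chr12:2967671-2967691), held 26.9, 22.1 and 23.6 CPM in the input and 6.05, 16.8 and 2.0 CPM after selection. All 3 selected libraries were below the input, but they were widely spread, with selected replicate 2 the highest. The log2(fold change) was 1.54 ± 0.61 (95% interval 0.17 to 2.92, adjusted p = 0.0811). Without selected replicate 2 it was 2.82 (adjusted p = 0.00569). FOXM1 shRNA 17 also lay past the fold limit without passing, at 62.8, 48.5 and 60.0 CPM in the input and 40.3, 11.7 and 49.3 CPM after selection (0.76 ± 0.42, adjusted p = 0.194). Its groups overlapped, with selected replicate 2 the low library.

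Another 5 FOXM1 shRNAs passed the adjusted p-value inside the fold limit. FOXM1 shRNA 14 fell from 183, 171 and 178 to 136, 140 and 113 CPM (0.46 ± 0.12, adjusted p = 0.0184), and its 3′ UTR target lies next to that of shRNA 13. FOXM1 shRNA 3, against exon 2, fell from 173, 155 and 155 to 128, 115 and 124 CPM (0.40 ± 0.11, adjusted p = 0.0252). FOXM1 shRNA 22, the most abundant of the 35, fell from 697, 646 and 682 to 603, 607 and 559 CPM (0.20 ± 0.06, adjusted p = 0.0375). This last shRNA shows the smallest difference that was resolved here, a 1.15-fold loss at a high count. In the other direction, FOXM1 shRNA 18, across the junction of exons 1 and 2 in the 5′ UTR, rose from 110, 92.7 and 98.7 to 149, 167 and 141 CPM (-0.60 ± 0.13, adjusted p = 0.00823). FOXM1 shRNA 19, against exon 2, rose from 103, 110 and 120 to 196, 137 and 138 CPM (-0.49 ± 0.16, adjusted p = 0.0440). None of these 5 had groups that overlapped. Without an input library most of them no longer passed: shRNAs 3, 14, 19 and 22 without any 1 of the 3, and shRNA 18 without replicate 2 or 3, while shRNA 22 was also lost without selected replicate 3.

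The other 10 tested FOXM1 shRNAs did not pass. Their log2(fold change) ran from -0.40 (shRNA 5) to 0.36 (shRNA 20), with adjusted p-values from 0.0903 to 0.766. The groups did not overlap for 5 of the 10, beside 51.2% of all tested shRNAs. In every selected library shRNAs 4 and 5 were higher and shRNAs 8, 11 and 20 lower. Their outcome hung on single libraries as well: shRNAs 4, 5 and 7 passed without selected replicate 3, shRNAs 11 and 20 without selected replicate 2 and shRNA 2 without selected replicate 1, at adjusted p-values from 0.0104 to 0.0398 and all inside the fold limit.

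Along the FOXM1 mRNA, both directions occurred in each region with several targets. The 3′ UTR held 7 targets, of which 6 were tested, with 1 depleted (background 6.83%) and 1 enriched (background 5.85%). The median log2(fold change) was 0.61 over a range from -2.09 to 1.54. The coding region of the same transcript held 14, of which 12 were tested, with none depleted and 2 enriched, beside the same background. Its median was -0.12 (-0.85 to 0.40). At an unadjusted p under 0.05 the coding region had 3 of 12 that were lower and 5 that were higher after selection. The 3′ UTR had 3 of 6 that were lower and 1 that was higher. Of the 7232 tested shRNAs of the library, 1518 were lower and 1687 higher. Targets a few bases apart could have unlike values. The target of shRNA 2 ends 7 bases before that of shRNA 13 begins, yet shRNA 2 was at 224, 208 and 204 CPM in the input and 172, 254 and 268 CPM after selection (-0.14 ± 0.15, adjusted p = 0.493), beside 1.49 for shRNA 13. The targets of shRNAs 13 and 14 are 11 bases apart and both fell. The targets of shRNAs 16 and 17 are 37 bases apart, with -2.09 for the former and 0.76, not passing, for the latter. The differences between shRNAs of the same gene were not tested.

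Grouped by the transcript that the annotation lists, NM_001243089.1 had 4 tested shRNAs (shRNAs 11 to 14). All 4 had every selected library below every input library, as did 25.6% of all tested shRNAs. Their log2(fold change) values were 0.35 to 1.54 with a median of 0.98, and 2 of them fell (background 15.4%). The other listed transcripts had medians below 0. They were -0.27 for NM_001243088.1 (4 tested, 1 fell and none rose), -0.07 for NM_021953.3 (4 tested, 1 rose), -0.05 for NM_202002.2 (4 tested, 1 fell and 1 rose) and -0.49 for NM_202003.2 (5 tested, 3 rose). Of all tested shRNAs, 15.4% fell and 17.4% rose. For 3 of the 5 of NM_202003.2 every selected library was above every input library (background 25.6%). NM_001243089.1 is described after the values of all 5 groups were seen, and the difference between the groups was not tested. The sequences of shRNAs 11 to 14 were present in 4 of the 5 coding transcripts of FOXM1, so that they do not separate 1 transcript from the rest. The target of shRNA 24, enriched as given above, is in 2 of the 5. Targets in only 1 of the 5 were those of shRNAs 21, 22 and 25, in an exon present only in ENST00000342628 among the coding transcripts. Of these, shRNA 22 fell as given above and shRNA 21 had too few counts for a test. FOXM1 shRNA 25 held 375, 374 and 387 CPM in the input and 413, 366 and 384 CPM after selection (-0.03 ± 0.07, 95% interval -0.19 to 0.13, adjusted p = 0.759). It is the 1 target of the 35 that occurs at many places, with 407 exact matches in the genome, among them an exon of NTRK3 in the same orientation. Of the 21 tested FOXM1 shRNAs, 6 have targets on the strand opposite an exon of ITFG2, a neighbouring gene. They were again mixed, with 1 depleted (background 6.83%), 2 enriched (background 5.85%) and a median of 0.16.

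None of the 5 PLK1 shRNAs passed, while 32.8% of all tested shRNAs did. All 5 had overlapping groups, while 51.2% of all tested shRNAs had groups that did not overlap. By edgeR 0 of the 5 had an unadjusted p under 0.05, and DESeq2 and limma voom called 0 as well. Of the 7232 tested shRNAs, 1518 were lower and 1687 higher at that unadjusted p. The most positive was PLK1 shRNA 3, against exon 5, with 39.4, 51.5 and 48.8 CPM in the input and 45.7, 28.5 and 33.6 CPM after selection (0.39 ± 0.24, 95% interval -0.15 to 0.93, adjusted p = 0.234). PLK1 shRNA 5, against exon 3, held 75.7, 69.7 and 84.8 CPM and then 69.9, 53.6 and 56.6 CPM (0.37 ± 0.17, interval -0.02 to 0.75, adjusted p = 0.130). For both, selected replicate 1 was the library closest to the input, and without it they passed inside the fold limit, at 0.58 (adjusted p = 0.0407) and 0.48 (adjusted p = 0.0254).

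The remaining PLK1 shRNAs stayed near 0. PLK1 shRNA 4, whose target at chr16:23701367-23701387 spans the stop codon, held 369, 356 and 354 CPM and then 369, 351 and 405 CPM (-0.06 ± 0.08, interval -0.23 to 0.11). PLK1 shRNA 2 held 201, 198 and 203 CPM and then 149, 223 and 206 CPM (0.04 ± 0.14, interval -0.27 to 0.36), and PLK1 shRNA 1 held 118, 109 and 115 CPM and then 126, 97.9 and 127 CPM (-0.03 ± 0.14, interval -0.35 to 0.29). The upper ends of these 3 intervals lie below the fold limit for depletion, while that of shRNA 5 lies about at it and that of shRNA 3 beyond it. The median of the 5 was 0.04. Their targets match 1 place in the genome each.

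All 3 tested KIF11 shRNAs had negative values, that is, higher levels after selection, and 1 of them rose (background 17.4%). By edgeR 2 were higher at an unadjusted p under 0.05, as were 1687 of the 7232 tested shRNAs. Neither edgeR, DESeq2 nor limma voom called any of the 3 depleted or enriched. KIF11 shRNA 4, against exon 4 at chr10:94366963-94366983 and present in all 3 coding transcripts, rose from 84.4, 80.4 and 79.0 to 136, 97.2 and 121 CPM (-0.53 ± 0.15, 95% interval -0.88 to -0.18, adjusted p = 0.0280). It no longer passed without any 1 of the input libraries or without selected replicate 3. KIF11 shRNA 2, against the 5′ UTR, held 42.4, 51.0 and 49.5 CPM in the input and 80.6, 66.4 and 54.4 CPM after selection (-0.48 ± 0.20, adjusted p = 0.0932). Every selected library was above every input library for both, though shRNA 2 did not pass. KIF11 shRNA 3, whose target spans the start codon, held 206, 215 and 204 CPM and then 153, 329 and 232 CPM (-0.21 ± 0.22, adjusted p = 0.490). Its selected libraries lay on both sides of the input, and without selected replicate 2 the value was 0.09, while without selected replicate 1 it was -0.42 (adjusted p = 0.0331). KIF11 shRNA 2 passed without selected replicate 3, at -0.62 (adjusted p = 0.0367). The targets of shRNAs 2 and 3 are in 1 of the 3 coding transcripts, ENST00000260731.

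KIF11 shRNA 5 moved the other way, at counts too low for the filter. It had 10, 3 and 3 counts in the input libraries and 0 in each selected library, which is at least 5.96-fold lower when the 3 counts that an observed 0 allows are set over the whole selected group. Its target crosses the junction of exons 4 and 5 and begins 9 bases after the end of the target of shRNA 4. It was called depleted (adjusted p = 0.0221) when all shRNAs were fitted without the filter, with a fitted log2(fold change) that depends on how a count of 0 is treated. KIF11 shRNA 1 had no count in the input and 1 in the selected libraries, in selected replicate 1.

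The other shRNAs left out by the filter target FOXM1 and were hardly present in the pool to begin with. FOXM1 shRNA 1 had no counts in any library. FOXM1 shRNA 15 had 2 counts, both in input replicate 1, and shRNA 21 had 1, in selected replicate 3. FOXM1 shRNA 9 had 1 count in each of input replicates 1 and 3 and of selected replicates 2 and 3. No direction can be read from these 4. In all, 6 of the 35 shRNAs (4 FOXM1, 2 KIF11) were not tested, and 82.9% were, beside 91.9% of the whole library. The target of shRNA 1 shares its first base with the last base of that of shRNA 19, the only overlap among the 35.

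Summed over their shRNAs, FOXM1 and PLK1 held nearly the same share of the pool before and after selection, and KIF11 a higher one. The FOXM1 shRNAs made up 3646 ± 43.6 CPM in the input and 3645 ± 117 CPM in the selected libraries (SD, n = 3 each), and the PLK1 shRNAs 798 ± 11.4 and 781 ± 41.1 CPM. The sums of KIF11 were 336, 347 and 334 CPM in the input and 370, 492 and 407 CPM after selection, without overlap. Selected replicate 2, the highest, included 329 CPM of KIF11 shRNA 3, which did not pass. The differences between sums were not tested. A sum is set mostly by the abundant shRNAs, so that the 4.26-fold gain of FOXM1 shRNA 16 and the 2.82-fold loss of shRNA 13 hardly show in it. The study's rule for a candidate, at least 2 shRNAs depleted at a log2(fold change) of 1 or at least 3 at 0.75, was met by none of the 3 genes and by none of their 7 listed transcripts. FOXM1 came nearest with 1 of its 25 shRNAs, which was also the count for NM_001243089.1 with 5. The study applied the rule to lncRNAs that had fewer shRNAs each than FOXM1. It used DESeq2 values, and edgeR values are used here. This verdict turned in 3 of the 15 alternative fits, where FOXM1 and NM_001243089.1 met the rule: without selected replicate 2 (shRNAs 12 and 13 at 2.82 and 1.46), with limma voom (2.15 and 1.48, and 0.98 for shRNA 17) and with the replicate block (1.89 and 1.62, and 0.93 for shRNA 17). PLK1 and KIF11 met it in none of the 15.

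Size of change went with rarity in the input. Over the 29 tested shRNAs the absolute log2(fold change) and the log2 input abundance had a correlation of -0.82 across shRNAs, given as a description, since all share the same 6 libraries. When all tested shRNAs were split into 4 equal groups by input abundance, the lowest group held 6 of the 29, of which 1 was depleted and 2 were enriched, and the highest held 11, of which none was called. Over the whole library the lowest group had 204 depleted (11.3%) and 242 enriched (13.4%) shRNAs. The highest had 49 (2.71%) and 15 (0.830%), so that the same gradient is present there. Its part in the 4 calls was not tested. The targets held 28.6 to 52.4% G and C, and the correlation of that share across the 29 shRNAs was -0.16 with the absolute and 0.05 with the signed log2(fold change).

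Of the other shRNAs of the library that have the guide seed of a called FOXM1 shRNA, 1 was called in the same direction as it. The 3 tested shRNAs with the seed of FOXM1 shRNA 16 (AATTCAA in the guide) ran from -0.06 to 0.21, and the 2 with the seed of shRNA 13 (TTAGAGG) were at -0.10 and 0.46, with no call among the 5. Of 11 tested with the seed of shRNA 10 (TTTCTTC), 1 was depleted and none enriched, over a range from -0.40 to 0.88. Of 7 with the seed of shRNA 24 (TTTCTGC), 1 was depleted and 1 enriched. Over all tested shRNAs the shares were 6.83% depleted and 5.85% enriched. Within FOXM1, shRNAs 10 and 15 have the same seed.

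Some shRNAs listed against non-coding transcripts also matched a KIF11 mRNA. In the sense orientation 7 had an exact match, all starting between bases 3531 and 3584 of ENST00000260731. Its coding sequence ends at base 3414, so that all lie in its 3′ UTR. Each of the 7 is listed against a different transcript, and their matches outside the 3 genes were not searched for. All 7 were tested, and none was called depleted or enriched by edgeR. At an unadjusted p under 0.05, 2 were lower and 1 was higher, beside 1518 and 1687 of the 7232 tested shRNAs. The log2(fold change) of the 7 ran from -0.53 to 0.57. The 1 that passed the adjusted p-value is listed as NR_110725 shRNA 3 (0.51 ± 0.13, adjusted p = 0.0154) and is named here after its value was seen. With up to 2 mismatches allowed, 200 tested shRNAs matched in the sense orientation, of which 13 (6.50%) were depleted and 14 (7.0%) enriched. In the antisense orientation 229 tested shRNAs matched, of which 17 (7.42%) were depleted and 19 (8.30%) enriched. The shares over the library were 6.83% and 5.85%. No shRNA listed elsewhere matched an mRNA of FOXM1 or PLK1 at up to 2 mismatches.

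Of 89 other genes of cell division on a fixed list (cyclins, kinases, spindle motors, replication factors), the library targeted 1, PLK2, a polo-like kinase of centriole duplication that p53 induces. Of its 10 shRNAs 9 were tested, with none depleted (background 6.83%) and 1 enriched (background 5.85%). The median log2(fold change) was 0.30 over a range from -1.50 to 1.75. At an unadjusted p under 0.05 by edgeR, 2 were lower after selection, beside 1518 of the 7232 tested shRNAs. Neither DESeq2 nor limma voom called any depleted, although 2 were called without selected replicate 3. The enriched one, PLK2 shRNA 9, was rare, at 4.54, 6.38 and 6.19 CPM in the input and 21.5, 16.4 and 11.5 CPM after selection (-1.50 ± 0.41, adjusted p = 0.0222), and it was no longer called whichever input library was left out. PLK2 shRNA 3 fell inside the fold limit (0.55 ± 0.10, adjusted p = 0.00389). The shRNAs against reporter and resistance genes, whose targets are not human genes, were set beside these. Of 48, 43 were tested, 4 were depleted (9.30%) and 3 enriched (6.98%), with a median of -0.09 and a range from -0.88 to 2.53. The selected cells do carry the puromycin resistance gene, 1 of these targets. Among the FOXM1, PLK1 and KIF11 shRNAs 1 of 29 was depleted and 3 were enriched, beside 4 and 3 of 43 here. The difference between these sets was not tested.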

How the data were processed

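The authors sequenced PCR products of the cassettes and deposited read counts per shRNA, which are whole numbers and not normalized. Per the submitters' processing notes, Cutadapt 1.4.2, BWA 0.7.10 and SAMtools 1.3 were used. The deposited annotation lists the target sequence, transcript and start position of each shRNA.

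The tests used R 4.3.3 with edgeR 4.0.16 on all 6 libraries (TMM, quasi-likelihood, no block), for shRNAs with a mean count of 10 or more. Standard errors were derived by dividing the log2(fold change) by the root of F, and 95% intervals use the fit's degrees of freedom. The procedure was tested on simulated data in which both groups had the same spread. For all tested shRNAs of the 3 genes but FOXM1 shRNAs 3 and 18, the selected libraries spread more widely, relative to their mean, than the input ones. The simulation did not cover that. The study's methods use DESeq2, which was run here as an alternative. The alternatives were DESeq2 1.42.0 (beta prior on or off), limma 3.58.1 (voom with group weights), other size factors, filters, fold limits and spread estimates, a replicate block, and the omission of each library.

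Targets were placed by exact match in GRCh37 and in GENCODE 44 transcripts lifted to that build. Library matches at up to 2 mismatches were sought in the coding transcripts of the 3 genes. Shared seeds are guide bases 2 to 8. Values per library are given for shRNAs whose adjusted p-value was 0.05 or less, for the highest and lowest of each gene, for those with a count of 0 or an overlapping target, and for a few others added for position. shRNAs are numbered in library order within each gene. The 3 genes, the gene lists and the tests were chosen with earlier results of these data known.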

Additional observations from a re-analysis of the deposited data

How the results depend on the processing

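No fitted value called in either direction changed sign, and PLK1 had no depleted or enriched shRNA, under any alternative run. Over the 3 genes, 1 depleted shRNA became 2 with no filter, 0 at a mean count of at least 100 (where 2 of the 29, shRNAs 12 and 13, are no longer tested), 3 with limma voom, 3 with the replicate block and 4 with no fold limit. For FOXM1 alone the 1 depleted became 0 at a mean count of at least 100, 3 with voom, 3 with the block and 4 with no fold limit. The added calls under voom and the block were shRNAs 12 and 17. The 3 enriched, all FOXM1, became 1 with the DESeq2 beta prior, which shrinks fold changes, and 1 at a fold limit of 1, while with no fold limit they became 6 over the 3 genes and 5 for FOXM1. KIF11 gained 1 depleted with no filter and 1 enriched with no fold limit. PLK2 had 1 depleted with no fold limit, and its 1 enriched became 0 at a mean count of at least 100 and 0 with the block. Reporter genes went from 4 depleted to 2 at a mean count of at least 100, and from 3 enriched to 12 with no fold limit and 0 at a fold limit of 1. With 1 library left out, depleted shRNAs ranged from 0 to 2 over the 3 genes and for FOXM1, 0 to 2 for PLK2 and 2 to 7 for reporters, and enriched ones from 1 to 3 over the 3 genes and for FOXM1 and 0 to 1 for PLK2. Without any 1 of the input libraries FOXM1 had 0 depleted and 1 enriched, and the cause was not tested.

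The labels give both groups replicate numbers 1 to 3, but the deviations of same-numbered libraries from their group means correlated at -0.010, 0.009 and -0.029, beside -0.022 to 0.033 for other pairs, so the numbers were not taken to be a paired design. The replicate block changed the side of the threshold for 6 of the 29 shRNAs, with FOXM1 shRNAs 3, 19 and 22 no longer passing and 11, 12 and 17 passing. FOXM1 shRNA 19 also did not pass when only library totals were used (log2(fold change) -0.45). Counts limit the rare shRNAs most, since 1 count was up to 0.672 CPM.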
